A study of Mus musculus with 9 samples.

Results

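The receptors of the ErbB family and the growth factors of the epidermal growth factor (EGF) family were followed across 3 adjoining zones of the mouse stomach. The members were the probe sets whose single gene symbol in the platform annotation was Egfr, Erbb2, Erbb3, Areg, Ereg, Hbegf, Tgfa, Btc, Nrg1 or Epgn. The rule found 20 of the 45101 probe sets, for 9 of the 10 genes. No probe set of the annotation used here carried Areg alone, and Areg was not analysed here. A filter on dim signals kept 17 of the 20 probe sets, with at least 1 for each of the 9 genes, so 9 of the 13637 genes tested belong to the family.

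The donors were healthy C57Bl/6 females, 3 months old and given no treatment that the labels name. The corpus is the glandular, acid-secreting zone, the forestomach is lined by squamous epithelium without glands, and the junction holds the border of these epithelia. Adjacent stripes of 600 to 800 µm in width were taken from 9 mice, and tissue of 3 mice was pooled into each of 3 series. Each zone therefore had 3 arrays, and arrays of a series came from the same mice. The stripes were called epithelium in the labels, yet smooth muscle and fibroblast transcripts were present in all zones and differed between them. The median summed signal of 6 smooth muscle genes was 244% of that of the corpus in the forestomach and 119% in the junction. For 6 fibroblast genes it was 192% and 141%. A change in the share of a cell type cannot be told apart from a change in RNA per cell.

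EGF family ligands are made as membrane-bound precursors and are cut loose by proteases called sheddases. They bind ErbB receptors, which pair up and pass the signal through adaptor proteins to the Ras-MAPK and PI3K relays. Erbb2 has no known ligand of its own and acts as a partner, and Erbb3 has little kinase activity and binds neuregulins. In squamous epithelium Egfr is a main growth signal of the basal layer, and in the stomach overproduction of the Egfr ligand TGF-alpha is known to expand mucous cells at the cost of acid-secreting parietal cells.

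The arrays had median signals from 47.9 to 57.1, and arrays of a zone correlated across genes at r = 0.976 or higher. The ratio of 3′ to 5′ control signal, a sign of RNA quality, was 0.723 ± 0.029 in the corpus, 0.759 ± 0.0043 in the junction and 0.846 ± 0.071 in the forestomach for Gapdh (SD, n = 3), and 1.65 ± 0.079, 1.52 ± 0.038 and 1.65 ± 0.080 for beta-actin. The Gapdh ratio thus moved in the order of the zones, and its part in the results was not tested. The basal squamous and parietal marker lists followed the labels. The summed signal of the 5 basal squamous genes measured ran from 143.7 to 340.6 in the corpus, 12330 to 17970 in the junction and 13430 to 16370 in the forestomach. That of the 6 parietal cell genes ran from 26870 to 37260 in the corpus and 23540 to 27680 in the junction. On forestomach arrays 1, 2 and 3 the parietal sum was 171.9, 920.5 and 1578.3. That of 5 mucous cell genes was 1201.2, 23577.8 and 29894.2 on these arrays, beside 50480 to 78400 in the corpus. The median mucous sum of the forestomach was 34.9% of that of the corpus. Of the 5 mucous cell genes 2 were called lower in the forestomach and 3 did not pass. Corpus transcripts were thus less scarce on forestomach arrays 2 and 3, and those of mucous cells remained at a sizeable level.

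The forestomach held more of most family members than the corpus. Of the 9 genes, 6 were higher (Egfr, Erbb2, Ereg, Epgn, Tgfa and Btc), 1 was lower (Erbb3) and 2 did not pass (Hbegf and Nrg1), by limma at an adjusted p under 0.05. Over all genes tested 59.9% were called in this comparison, 30.0% higher and 29.9% lower. In the junction 6 members were higher than in the corpus (Egfr, Erbb2, Erbb3, Ereg, Tgfa and Btc) and 0 were lower, where 25.0% of all genes were called, 13.2% higher and 11.8% lower. Against the forestomach the junction was higher for Erbb3 and Nrg1 and lower for Egfr, Ereg, Tgfa and Btc, where 44.6% of all genes were called, 21.5% higher and 23.1% lower. The median log2 difference over the 9 genes was 0.75 for forestomach against corpus, 0.48 for junction against corpus and -0.35 for junction against forestomach, while the medians over all genes were -0.01, -0.05 and -0.04. With forestomach arrays 2 and 3 left out, 6, 6 and 2 members were higher and 0, 0 and 3 lower in the 3 comparisons, where 22.2%, 12.1% and 15.6% of all genes were higher and 23.9%, 11.6% and 13.3% lower. In that setting forestomach array 1 alone stands for its zone, so forestomach differences rest on 1 pool, with the spread taken from the other zones. The members were not all the same. Against the corpus the forestomach then lost Erbb2 and Erbb3 and gained Hbegf, the junction lost Tgfa and gained Hbegf, and the junction against the forestomach lost Tgfa and Btc and gained Epgn. No member was lower in the junction than in the corpus by limma at an unadjusted p under 0.05 either (0), while 8 were then higher, where 18.1% of all genes were higher and 2726 of 13637 lower. The arrays of forestomach and corpus did not overlap for 66.4% of all genes (33.2% higher, 33.2% lower), those of junction and corpus for 43.8% (23.7% lower and the rest higher) and those of junction and forestomach for 55.8% (26.0% higher, 29.8% lower).

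**Figure D1:**
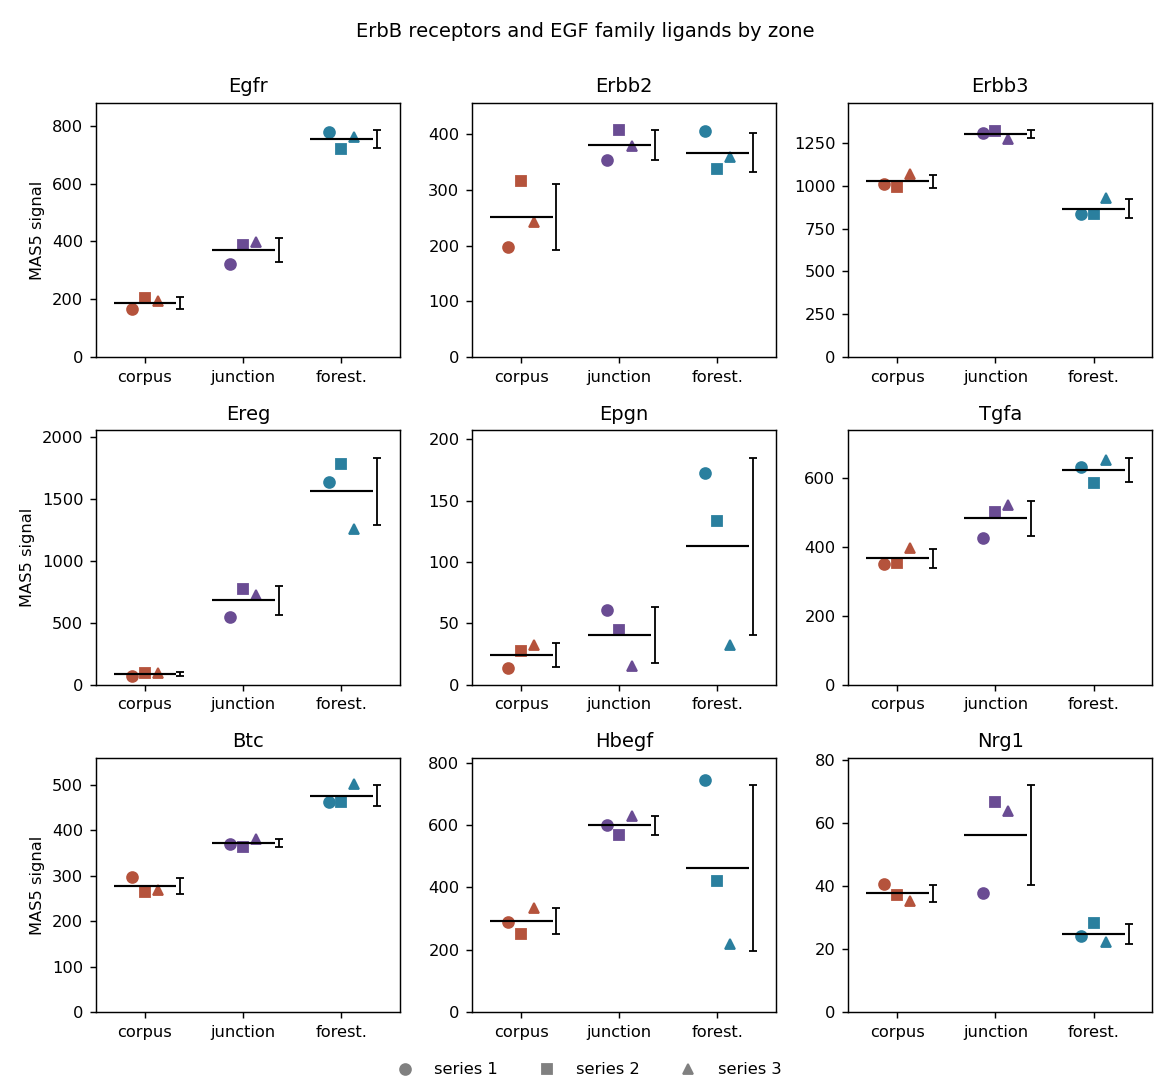
MAS5 signal (vertical axes, linear, from 0) of the brightest tested probe set of each of 9 genes in corpus, junction and forestomach, with 1 point per array, its shape giving the series, a line at the mean and a bar of ± 1 SD (n = 3). Egfr, Ereg, Tgfa and Btc step up from corpus through junction to forestomach with no overlap, Erbb3 is highest in the junction, and the forestomach arrays of Epgn and Hbegf lie far apart.

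Egfr, the receptor that binds EGF, TGF-alpha and most of their kin, had its highest signal in the forestomach. Its brightest probe set, 1435888_at, read 165.1, 203.5 and 194.2 on corpus arrays 1 to 3, 321, 388.9 and 399.1 in the junction, and 780.4, 718.4 and 762 in the forestomach. The 3 zones did not overlap. The forestomach was 3.88-fold over the corpus (1.96 ± 0.12 SE on the log2 scale, adjusted p = 1.57e-06), the junction 1.92-fold over the corpus (0.94 ± 0.12, adjusted p = 6.70e-04) and 2.02-fold below the forestomach (-1.01 ± 0.12, adjusted p = 1.91e-04). Within series 1, 2 and 3 the ratio of forestomach to corpus signal was 4.73, 3.53 and 3.92.

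Of the 7 Egfr probe sets 5 passed the filter, and of the other 4 kept, 2 stepped up through the zones in the same way and 2 did not. Probe sets of a gene can see different transcripts. All kept probe sets were also tested together, where 52.8%, 19.1% and 37.4% were called in the 3 comparisons. There 1424932_at and 1451530_at had log2 differences of 1.82 and 1.07 between forestomach and corpus (adjusted p = 1.57e-05 and 3.11e-04). For junction against corpus they were at 0.84 and 0.44, and only the first passed (adjusted p = 0.00659 and 0.0660). The probe set 1460420_a_at, of a type designed against alternative transcripts of a gene, read 295.6, 263.5 and 286.8 in the corpus, 232.3, 276.7 and 272.6 in the junction and 316, 342.3 and 298.8 in the forestomach. Its log2 difference between forestomach and corpus was 0.17 (adjusted p = 0.221) and that between junction and corpus -0.11 (adjusted p = 0.509). The dim 1432647_at, at means from 35.6 to 40.4, was at -0.13 (adjusted p = 0.607). With the mean of the 5 kept probe sets the forestomach was 0.98 above the corpus on the log2 scale (adjusted p = 1.05e-04, range over the alternatives 3.63e-09 to 3.86e-04). In a fit of the 6 corpus and junction arrays alone 1460420_a_at is the brightest, and the junction difference is then -0.11 (adjusted p = 0.486, range 2.97e-05 to 0.486).

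**Figure D2:**
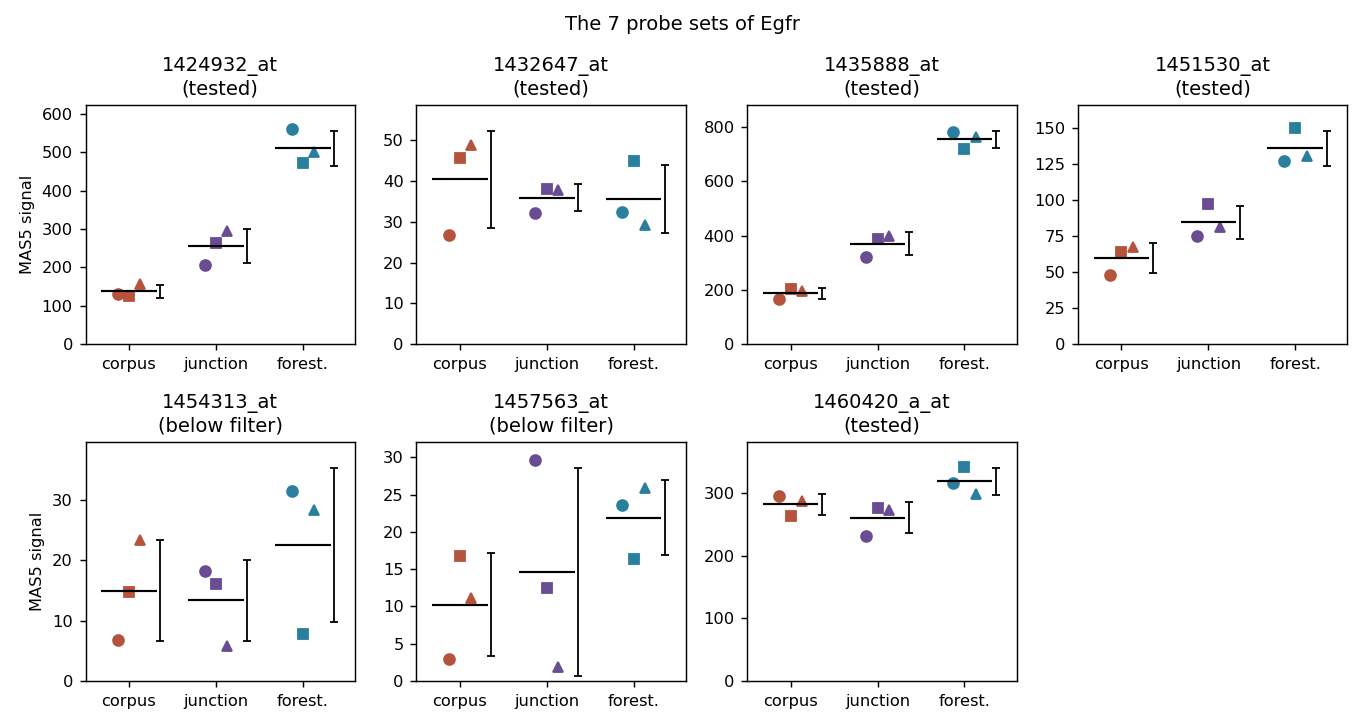
MAS5 signal (vertical axes, linear, from 0) of each of the 7 Egfr probe sets by zone, with 1 point per array, its shape giving the series as in the plot of members, the mean as a line and ± 1 SD as a bar (n = 3). Probe sets 1424932_at, 1435888_at and 1451530_at rise from corpus to forestomach, 1460420_a_at lies between 232.3 and 342.3 in every zone, and 1432647_at, 1454313_at and 1457563_at are dim throughout.

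Erbb2, the partner receptor with no known ligand, was lowest in the corpus. Its signal was 197.6, 316.1 and 242.1 in the corpus, 354.1, 408.6 and 378.9 in the junction and 405.3, 338.2 and 358.7 in the forestomach. All corpus arrays lay below the other 6, while junction and forestomach overlapped. The forestomach was 1.46-fold over the corpus (0.55 ± 0.16 on the log2 scale, adjusted p = 0.0169) and the junction 1.51-fold (0.60 ± 0.16, adjusted p = 0.0275). Junction and forestomach were not shown to differ (0.05 ± 0.16, adjusted p = 0.823). Both calls against the corpus rested on few arrays. Without corpus array 1, forestomach array 1, forestomach arrays 2 and 3 together, series 1 or series 3 the forestomach call was lost (adjusted p = 0.0506, 0.0577, 0.0565, 0.144 and 0.109, range over the alternatives 0.00248 to 0.144). Without corpus array 1 or 3, junction array 2 or 3, or series 1 or 3 the junction call was lost (adjusted p = 0.0755, 0.0709, 0.0858, 0.0728, 0.0905 and 0.185, range 0.00700 to 0.185).

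Erbb3, a receptor for neuregulins, was highest in the junction. It read 1012.5, 994.2 and 1068.6 in the corpus, 1305.5, 1322.9 and 1275.1 in the junction and 837.7, 832.7 and 930.9 in the forestomach. Every junction array lay above every array of both neighbours. The junction was 1.5-fold above the forestomach (0.58 ± 0.08 on the log2 scale, adjusted p = 6.53e-04) and 1.27-fold over the corpus (0.34 ± 0.08, adjusted p = 0.0190). The intersection-union test, which asks for both differences at once, did not pass (adjusted p = 0.260, range over the alternatives 0.0815 to 1). It called 0.198% of all genes above both neighbours and 0.0147% below both, and 0 of the 9 members. At an unadjusted p under 0.05, limma put 2 members, Erbb3 and Nrg1, above both, as it did 2.08% of all genes. The difference from the corpus was lost without corpus array 1 or 2, junction array 2, or series 1, 2 or 3 (adjusted p = 0.0602, 0.0579, 0.0593, 0.130, 0.152 and 0.0838, range 0.00411 to 0.152). The forestomach was 1.18-fold below the corpus (-0.24 ± 0.08, adjusted p = 0.0347). That call was lost under 13 of 24 alternatives. Among them were median centring (-0.13, adjusted p = 0.322) and leaving out corpus array 1, 2 or 3 (adjusted p = 0.0692, 0.0528 and 0.0981), forestomach array 1 or 2 (0.1 and 0.0933), or series 1, 2 or 3 (0.183, 0.146 and 0.0940), with a range from 0.0139 to 0.322. The second Erbb3 probe set did not reach the filter on any array.

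Ereg, which encodes the ligand epiregulin, showed the widest range of the family. Its signal was 70.9, 91.5 and 94.2 in the corpus, 547.7, 773.8 and 720.7 in the junction and 1639.4, 1785.3 and 1256.8 in the forestomach. The zones did not overlap. The forestomach was 16.4-fold over the corpus (4.03 ± 0.18 on the log2 scale, adjusted p = 3.28e-07). The junction was 7.21-fold over the corpus (2.85 ± 0.18, adjusted p = 1.03e-05) and 2.27-fold below the forestomach (-1.18 ± 0.18, adjusted p = 8.79e-04). All 24 alternatives kept these 3 calls and their directions. Within a series the junction stood 7.65 to 8.46 times above the corpus.

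Epgn, which encodes the ligand epigen, was dim and varied among forestomach arrays. It read 13.2, 27.5 and 32 in the corpus, 60.9, 44.4 and 15.5 in the junction and 172.4, 133.2 and 32.3 in the forestomach. Forestomach array 3 lay just above the highest corpus array, and junction array 3 lay within the corpus range. The forestomach was 3.12-fold over the corpus (1.64 ± 0.57 on the log2 scale, adjusted p = 0.0345). That call was lost without corpus array 1 or 2, forestomach array 1 or 2, or series 1 or 2 (adjusted p = 0.104, 0.0606, 0.114, 0.102, 0.235 and 0.182) and narrowly without a filter (0.0507, range 0.00118 to 0.235). The log2 difference was 2.29 without forestomach array 3, 2.46 without series 3 and 0.97 without series 1. The junction did not pass against corpus (0.48 ± 0.57, adjusted p = 0.583) or forestomach (-1.16 ± 0.57, adjusted p = 0.132). The second of these passed without forestomach array 3 or series 3 (adjusted p = 0.0135 and 0.0154) and without forestomach arrays 2 and 3 (0.0420, range 0.0135 to 0.368).

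Tgfa, which encodes TGF-alpha, rose in smaller steps. Its brightest probe set, 1421943_at, read 348.6, 352.9 and 397.2 in the corpus, 424.9, 500.3 and 519.7 in the junction and 631.2, 583.1 and 652.4 in the forestomach. On this probe set the zones did not overlap. The forestomach was 1.68-fold over the corpus (0.75 ± 0.11 on the log2 scale, adjusted p = 3.35e-04), and this call held under all 24 alternatives (adjusted p from 2.18e-05 to 0.0294). With the mean of its 3 kept probe sets the difference was 0.39 (adjusted p = 0.0294). The junction was 1.30-fold over the corpus (0.38 ± 0.11, adjusted p = 0.0314) and 1.29-fold below the forestomach (-0.37 ± 0.11, adjusted p = 0.0220). The first junction call was lost without corpus array 1 or 2, junction array 2 or 3, or any series (adjusted p = 0.0964, 0.0859, 0.0934, 0.103, 0.0744, 0.204 and 0.129), and also without forestomach arrays 2 and 3, without a filter and in the 6-array fit (0.0545, 0.0572 and 0.0525, range 0.0122 to 0.204). The second was lost without junction array 1, forestomach array 1 or 3, or any series (adjusted p = 0.0682, 0.0611, 0.0690, 0.173, 0.0674 and 0.0723), without forestomach arrays 2 and 3 (0.121), with median centring (0.0570) and with the mean of probe sets (0.11, adjusted p = 0.516, range 0.00916 to 0.516). A dim probe set of a type that can match several transcripts, 1421942_s_at, ran from 11.9 to 17.4 in the corpus, 27.8 to 59.1 in the junction and 21.2 to 35.2 in the forestomach. It did not show the junction below the forestomach (log2 difference 0.35, adjusted p = 0.263). The third probe set, 1450421_at, had means of 56.8, 62.7 and 48.6 in corpus, junction and forestomach, its arrays overlapped, and it was not called between forestomach and corpus (-0.22, adjusted p = 0.536).

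Btc, which encodes betacellulin, a ligand of Egfr and Erbb4, followed the same order of zones. Its brightest probe set read 297.1, 264.9 and 267.6 in the corpus, 368.4, 363.4 and 380.3 in the junction and 462.1, 461.3 and 501.9 in the forestomach. On this probe set the zones did not overlap. The forestomach was 1.69-fold over the corpus (0.76 ± 0.09 on the log2 scale, adjusted p = 7.78e-05), and this call held under all 24 alternatives. The junction was 1.33-fold over the corpus (0.41 ± 0.09, adjusted p = 0.00926, 0.0971 and 0.109 without series 2 and 3, range 0.00460 to 0.109). It was 1.27-fold below the forestomach (-0.35 ± 0.09, adjusted p = 0.0103). The last call was lost without series 1, 2 or 3 (adjusted p = 0.0642, 0.0693 and 0.0844), without forestomach arrays 2 and 3 (0.121) and with the mean of both probe sets (-0.25, adjusted p = 0.0527, range 0.00605 to 0.121). The other probe set, 1421161_at, had means of 102.3, 123.8 and 138.2 in corpus, junction and forestomach, and its junction arrays overlapped both neighbours. It differed between forestomach and corpus (0.40, adjusted p = 0.0335) and did not pass for the junction against corpus (0.24, adjusted p = 0.235) or forestomach (-0.15, adjusted p = 0.401).

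Hbegf, which encodes heparin-binding EGF-like growth factor, was even in the junction and uneven in the forestomach. The probe set 1418350_at read 290, 251.2 and 333.4 in the corpus, 601.3, 567.6 and 628.4 in the junction and 746, 420.1 and 219.8 in the forestomach. All junction arrays lay above all corpus arrays, and the forestomach arrays spanned both zones. The second probe set gave the same ranking of the forestomach arrays, at 276.1, 171.8 and 128. Neither the forestomach (0.49 ± 0.36 on the log2 scale, adjusted p = 0.263) nor the junction (1.02 ± 0.36, 2.03-fold, adjusted p = 0.0678) passed against the corpus, and the junction did not pass against the forestomach (0.53 ± 0.36, adjusted p = 0.259). The shared error holds the forestomach spread. In a fit of the 6 corpus and junction arrays alone the junction passed against the corpus (adjusted p = 0.00211). It also passed without forestomach array 1 or 3 (adjusted p = 0.0147 and 0.0111, range over the alternatives 0.00211 to 0.288). With all 9 arrays it passed with a pseudocount of 30.9, with the 60th percentile filter and with median centring. Without forestomach array 3 or series 3 the forestomach was 0.93 or 1.03 above the corpus (adjusted p = 0.0105 and 0.0245, range 0.00113 to 0.867). Without forestomach array 1 the junction was 0.95 above the forestomach (adjusted p = 0.0188), and without arrays 2 and 3 together it was 0.31 below it (-0.31, adjusted p = 0.229, range 0.0188 to 0.883). Hbegf and Epgn were highest on the forestomach array with the lowest parietal sum and lowest on the array with the highest, 171.9 and 1578.3. The part of corpus transcripts in this spread was not tested.

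Nrg1, which encodes neuregulin 1, a ligand of Erbb3 and Erbb4, lay close to the filter level of 29.0 to 36.5. It read 40.5, 37.1 and 35.4 in the corpus, 37.8, 66.6 and 63.8 in the junction and 24, 28.3 and 22.2 in the forestomach. All forestomach arrays were below the other 6. The junction was 1.86-fold above the forestomach (0.90 ± 0.18 on the log2 scale, adjusted p = 0.00341, 0.0595 without series 3, range 2.38e-04 to 0.0595). The forestomach was not called below the corpus (-0.46 ± 0.18, adjusted p = 0.0508). It was called with a pseudocount of 1 and in a fit of the 6 forestomach and corpus arrays alone. Without junction array 1 or 2 it was called as well (adjusted p = 0.00486 and 0.0445, range 0.00486 to 0.232). The junction was not called above the corpus (0.44 ± 0.18, adjusted p = 0.102), though it was without junction array 1 or series 1 (0.66 and 0.70, adjusted p = 0.00481 and 0.0215, range 0.00481 to 0.437).

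**Figure D3:**
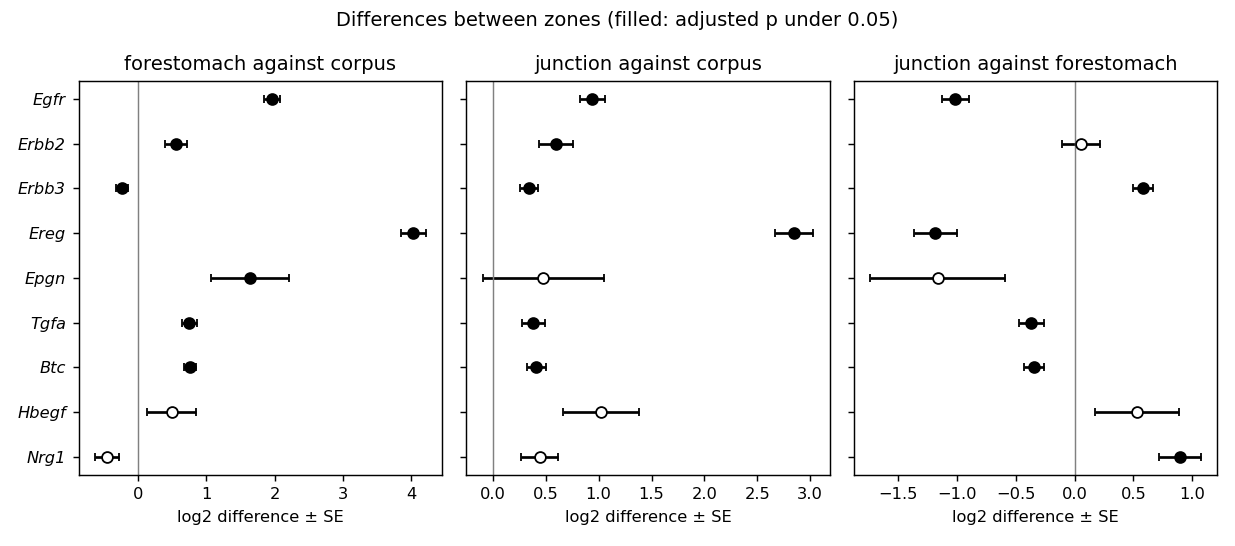
Log2 difference ± SE (horizontal axes, limma, n = 3 arrays per zone) of 9 genes in the 3 comparisons, with filled points at an adjusted p under 0.05 and open points otherwise; each panel has its own scale. Ereg has the longest distance from 0 in the first 2 panels, at 4.03 and 2.85, and Erbb3 and Nrg1 are the filled points right of 0 in the third.

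Of the other members of the family, Egf ran against most of the ligands. Egf encodes the founding ligand of Egfr and read 655.8, 921.5 and 528 in the corpus, 590.5, 484.7 and 291.3 in the junction and 102.5, 107.7 and 126.2 in the forestomach. All forestomach arrays lay below the other 6. The forestomach was 5.7-fold below the corpus (-2.51 ± 0.27 on the log2 scale, adjusted p = 6.15e-05), and the junction was 3.68-fold above the forestomach (1.88 ± 0.27, adjusted p = 6.71e-04). The junction did not pass against the corpus (-0.63 ± 0.27, adjusted p = 0.125). The neuregulins Nrg2 and Nrg4 passed in none of the 3 comparisons, with log2 differences from 0.03 to 0.65 and adjusted p from 0.111 to 0.925. The probe sets of Erbb4 and Nrg3 did not pass the filter, and the highest signal among them was 20.3.

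Where the junction lies between its neighbours was read from the linear signal within each series, with 0 at the corpus and 1 at the forestomach. Egfr stood at 0.325 ± 0.062 (mean ± SD, n = 3 series), Ereg at 0.415 ± 0.12, Tgfa at 0.463 ± 0.19 and Btc at 0.472 ± 0.036. The median over the 4025 genes that were called higher in the forestomach with no overlap was 0.309 ± 0.064. The median basal squamous gene stood at 1.0 ± 0.19 and the median suprabasal one at 0.788 ± 0.14, both nearer the forestomach than the 4 family genes. Within these lists Trp63 and Ivl were called lower in the junction than in the forestomach. Their log2 differences were -0.54 and -1.83 (limma adjusted p = 0.0411 and 2.07e-04), and the other genes of the lists did not pass. Bright signals can saturate, and the part of this in the squamous positions was not tested. Smooth muscle genes stood at 0.0352 ± 0.086 and fibroblast genes at 0.415 ± 0.12. The part of any cell type in the levels of the family was not tested. Erbb3, which was highest in the junction, stood outside its neighbours at -1.74 ± 0.27. Erbb2 stood at 0.753, 4.19 and 1.17 in series 1 to 3, since its forestomach and corpus signals were close in series 2. Epgn stood at 0.300 and 0.160 in series 1 and 2, and in series 3 its neighbours were too close to give a position.

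**Figure D4:**
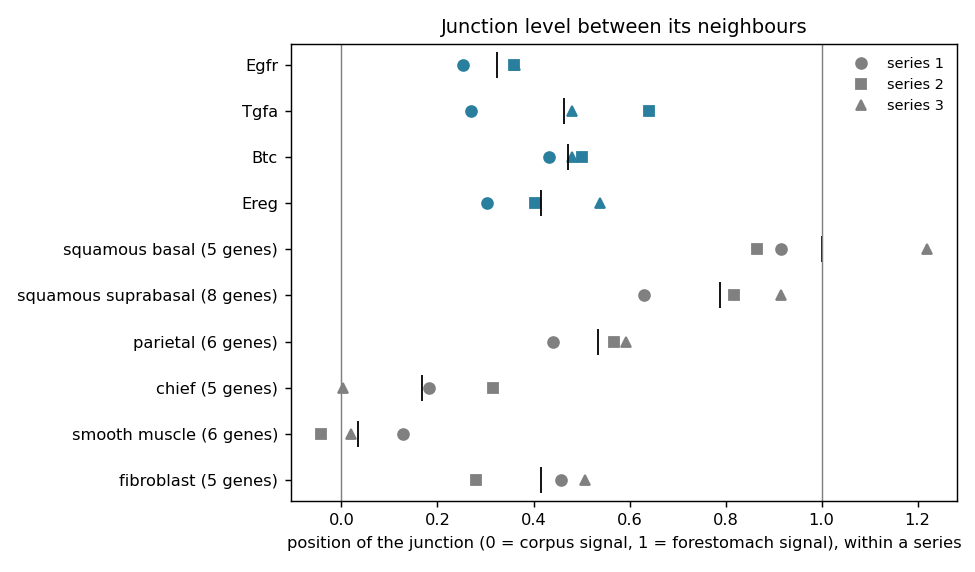
Position of the junction between corpus (0) and forestomach (1) on the linear signal (horizontal axis), with 1 point per series and a tick at the mean, for 4 family genes (blue) and for the median gene of 6 marker lists (grey). The means of Egfr, Tgfa, Btc and Ereg lie from 0.325 to 0.472, those of the squamous lists at 0.788 and 1.0 and that of smooth muscle at 0.0352.

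The genes Epgn, Ereg, Areg and Btc follow each other without another protein-coding gene between them on mouse chromosome 5, in the RefSeq gene table for GRCm38.p6. The 3 that were tested, Epgn, Ereg and Btc, were all higher in the forestomach than in the corpus, as were 30.0% of all genes. Their log2 differences were 1.64 ± 0.57, 4.03 ± 0.18 and 0.76 ± 0.09 (SE, limma adjusted p = 0.0345, 3.28e-07 and 7.78e-05). The Epgn call was lost under 7 of 23 alternatives. The tested neighbours of these genes were not higher, and 29.9% of all genes were lower. Mthfd2l, on the Epgn side, was at -0.13 (adjusted p = 0.516), and Cxcl1, a chemokine gene further out, was at -0.75 (adjusted p = 0.0104). Parm1 and Rchy1, on the Btc side, were at -0.50 and -0.42 (adjusted p = 0.00237 and 0.00264).

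Promoter sequence is shown for Egfr, Epgn and Btc, which were all higher in the forestomach. Of the other members called higher there, Erbb2 and Tgfa are not shown and Ereg had no promoter entry. Each line gives the 250 bases before the start of the gene in the RefSeq table, read 5′ to 3′ along the gene. Capitals mark a GC box (GGGCGG) or a TATA box (TATAAA) on either strand.
Egfr, chr11:16751953-16752202, plus strand, GRCm38.p6: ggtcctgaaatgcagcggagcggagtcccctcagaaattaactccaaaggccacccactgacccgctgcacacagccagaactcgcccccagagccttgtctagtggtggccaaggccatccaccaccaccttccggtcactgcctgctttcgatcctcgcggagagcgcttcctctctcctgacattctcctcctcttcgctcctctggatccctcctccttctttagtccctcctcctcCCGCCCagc
Epgn, chr5:91027267-91027516, plus strand, GRCm38.p6: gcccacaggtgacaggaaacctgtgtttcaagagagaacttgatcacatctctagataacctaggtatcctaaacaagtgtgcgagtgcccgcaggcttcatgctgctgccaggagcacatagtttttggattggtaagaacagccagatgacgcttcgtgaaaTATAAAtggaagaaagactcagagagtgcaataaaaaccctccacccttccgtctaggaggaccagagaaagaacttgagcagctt
Btc, chr5:91402995-91403244, minus strand, GRCm38.p6: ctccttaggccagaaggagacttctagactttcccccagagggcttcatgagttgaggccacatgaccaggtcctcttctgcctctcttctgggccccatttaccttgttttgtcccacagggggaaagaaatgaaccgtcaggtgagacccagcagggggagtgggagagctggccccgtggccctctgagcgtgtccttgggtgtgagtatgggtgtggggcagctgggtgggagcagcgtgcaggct

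These 3 genes, all higher in the forestomach, did not share a promoter type by these letters. Egfr held 1 GC box, Epgn held 1 TATA box and Btc held neither. Of the higher members not shown, Erbb2 held neither box. Tgfa, whose window did not lie at the listed gene start, held 2 GC boxes and no TATA box. Of 32851 RefSeq promoter windows of the same length, 32.7% held the GC box and 12.4% the TATA box. The CACCC box (CACCC), present in 52.0% of windows, was found in all 3, with 1, 1 and 3 matches. An AP-1 site (TGANTCA, 6.75% of windows) and the p53 family half-site (7.13%) were found in none of the 3. The share of G and C was 60.8%, 46.8% and 59.6%, beside a median of 52.4%. No GC box overlapped a TATA box here, and a match to letters is a description only.

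Sheddases and their partners changed in both directions. Over all genes tested, 30.0% were higher and 29.9% lower in the forestomach against the corpus. The shares were 13.2% and 11.8% in the junction against the corpus, and 21.5% and 23.1% in the junction against the forestomach. Of the 13 tested, 6 rose and 3 fell in the forestomach against the corpus (median log2 difference 0.26), and 5 rose and 0 fell in the junction against the corpus (0.11). Rhbdf2, an inactive rhomboid that carries the main ligand sheddase Adam17 to the cell surface, was at means of 24.5, 119 and 139 in corpus, junction and forestomach (4.35-fold in the forestomach, adjusted p = 2.07e-06). Adam17 itself was at 320, 500 and 502, and the junction was 1.55-fold over the corpus (adjusted p = 0.00441). Nrd1, which encodes nardilysin, an enhancer of ectodomain shedding, was 2.66-fold higher in the forestomach (adjusted p = 1.30e-05), and Adam8 2.41-fold (adjusted p = 5.83e-05). Rhbdl2, a rhomboid protease, was 2.39-fold lower (adjusted p = 4.76e-05). Against the forestomach 3 were higher in the junction and 3 lower (median -0.07). Rhbdl2 and Adam9 were 2.19- and 1.80-fold higher, and Nrd1 and the protease inhibitor gene Timp3 1.99- and 1.85-fold lower.

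Proteins that sit beside the receptors included the widest falls of the pathway. Beside the counts that follow, 30.0%, 13.2% and 21.5% of all genes were higher and 29.9%, 11.8% and 23.1% lower. Of the 14 receptor partners and scaffolds tested, 4 rose and 5 fell in the forestomach against the corpus, 5 rose and 2 fell in the junction against the corpus, and 6 were higher and 4 lower in the junction against the forestomach (medians -0.06, -0.01 and 0). Without forestomach arrays 2 and 3 the last count of lower genes was 1. Muc4, a membrane mucin known to bind Erbb2, read 89.1, 80.1 and 111.5 in the corpus, 443.8, 606 and 496.3 in the junction and 12.8, 26.3 and 18.4 in the forestomach. Every junction array was above all others, and the intersection-union test passed (smaller log2 difference 2.34, adjusted p = 0.00410). Its probe set is of a type whose probes may match other transcripts. Muc1, another membrane mucin and a gene of mucous cells, was 75.1-fold lower in the forestomach than in the corpus (adjusted p = 2.96e-05). Cd44, a hyaluronan receptor that can hold Hbegf, was 12-fold higher (adjusted p = 1.99e-07), and Cd82, a tetraspanin, 4.66-fold lower (adjusted p = 2.09e-07). In the junction Cd9, a tetraspanin that associates with the Hbegf precursor, and the syndecan Sdc1 were 2.30- and 2.25-fold over the corpus (adjusted p = 5.37e-05 and 6.73e-05). The caveolin gene Cav1 was 3.23-fold lower in the junction than in the forestomach (adjusted p = 1.75e-05).

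Among adaptors and relay proteins most differences were small. For the counts that follow, the shares of all genes were 30.0%, 13.2% and 21.5% higher and 29.9%, 11.8% and 23.1% lower. Of 31 tested, 13 rose and 6 fell in the forestomach against the corpus (median log2 difference 0.24), 3 rose and 2 fell in the junction against the corpus (0.08), and 3 were higher and 8 lower in the junction against the forestomach (-0.20). Vav3, a guanine nucleotide exchange factor, stood out at means of 44.4, 526 and 937 in corpus, junction and forestomach (17.5-fold in the forestomach, adjusted p = 2.96e-07). Eps8, a substrate of Egfr that acts on actin, was 3.16-fold lower in the forestomach (adjusted p = 1.13e-05), and Pik3cb, a catalytic subunit of PI3K, 2.06-fold higher (adjusted p = 5.86e-04). Akt2 was 1.79-fold lower (adjusted p = 9.94e-04). In the junction against the corpus Pik3cb was 1.59-fold higher (adjusted p = 0.0185), Nras 1.42-fold higher (adjusted p = 0.0132) and Akt2 1.48-fold lower (adjusted p = 0.0206). Plcg1 and Gab2 were 1.49- and 1.52-fold lower in the junction than in the forestomach (adjusted p = 0.00300 and 0.0451). Without forestomach arrays 2 and 3, 8 of the list rose and 3 fell in the forestomach against the corpus, 1 fell in the junction against the corpus, and 4 were lower in the junction than in the forestomach.

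Feedback inhibitors of the pathway split by gene. The counts that follow stand beside shares of all genes of 30.0%, 13.2% and 21.5% higher and 29.9%, 11.8% and 23.1% lower. Of 25 tested, 11 rose and 5 fell in the forestomach against the corpus (median log2 difference 0.15), 7 rose and 3 fell in the junction against the corpus (0.11), and 3 were higher and 6 lower in the junction against the forestomach (-0.16). Dusp5, a nuclear phosphatase of ERK, was at means of 35.8, 158 and 441 in corpus, junction and forestomach (10.4-fold in the forestomach, adjusted p = 2.86e-05). Sh3kbp1, an adaptor in receptor uptake, was 6.50-fold higher in the forestomach (adjusted p = 4.89e-06) and Dusp1 3.63-fold (adjusted p = 2.54e-05). The dim Spred3, at means of 3.6, 14.2 and 46.3, was 4.17-fold higher there (adjusted p = 8.69e-04). Dusp6, the cytoplasmic ERK phosphatase, and Dusp4 had log2 differences of -1.48 and -1.74 (adjusted p = 3.77e-04 and 1.85e-04). Errfi1, a direct inhibitor of the Egfr kinase, was at 0.75 (adjusted p = 0.00306). Lrig1, which marks Egfr for breakdown, was lowest in the junction, at 601, 326 and 473, and was 1.83-fold below the corpus there (adjusted p = 0.00613). Dusp7 was 2.07-fold over the corpus in the junction (adjusted p = 0.00103). Without forestomach arrays 2 and 3, 24 of the list were tested, and 2 were lower in the junction than in the forestomach.

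Genes that respond to ERK signalling also moved both ways. All genes had shares of 30.0%, 13.2% and 21.5% higher and 29.9%, 11.8% and 23.1% lower in the comparisons that follow. Of 20 tested, 11 rose and 5 fell in the forestomach against the corpus (median log2 difference 0.46), 4 rose and 2 fell in the junction against the corpus (0.24), and 5 were higher and 4 lower in the junction against the forestomach (-0.19). The transcription factor gene Egr3 was at means of 17.4, 345 and 1183 (44.6-fold in the forestomach, adjusted p = 1.72e-06). Egr2 was 3.41-fold higher (adjusted p = 0.00666). The chromatin protein gene Hmga2 was 4.41-fold lower (adjusted p = 1.96e-05) and Phlda1 3.66-fold (adjusted p = 6.50e-05). Ier3 and Myc were 1.96- and 1.68-fold higher in the junction than in the corpus (adjusted p = 0.00135 and 0.00206). Plaur, the urokinase receptor gene, and Fos were 3.01- and 2.79-fold higher in the junction than in the forestomach (adjusted p = 2.57e-04 and 0.0155). Without forestomach arrays 2 and 3, 8 were lower in the junction than in the forestomach.

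Ereg had the widest range of zone means, and the genes of most like pattern over the 9 arrays were found by the root mean square difference of log2 values centred on each gene's mean. The closest were the heme oxygenase gene Hmox1 (0.184), Kctd1 (0.193) and the ceramide synthase gene Cers3 (0.199). Hmox1 had log2 differences of 3.86 and 2.75 for forestomach and junction against corpus, Kctd1 3.91 and 2.66, and Cers3, which makes the long ceramides of the squamous barrier, 4.22 and 2.83, beside 4.03 and 2.85 for Ereg.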

How the data were processed

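Total RNA of 9 tissue pools was hybridised to Affymetrix mouse arrays, 1 per pool, per the labels. Each deposited value is a linear signal intensity of a probe set, for which the submitters' processing notes name MAS5. Its version and settings were not given in the sources used here. Trimming 2% at each end leaves a mean of 200.0 on every array. Dim MAS5 signals are noisy, and bright ones can saturate.

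Of 45101 probe sets, 34958 carried 1 symbol in the platform annotation, 932 several and 9211 none, and 34754 symbols were brought up to date through Entrez IDs (RefSeq, GRCm38.p6). The 64 control probe sets were left out. A probe set was kept (29511) if it passed its own array's 40th percentile (29.0 to 36.5) on 3 or more arrays, and the brightest kept one stood for its gene. A pseudocount of 9.9, a median of 20th percentiles, was added before taking log2, so folds of dim genes are understated. limma 3.58.1 (R 4.3.3) was fitted over all 9 arrays with a mean per zone (6 residual and 2.57 prior degrees of freedom), two-sided, with Benjamini-Hochberg adjustment over 13637 genes, and was tested on simulated data. Python 3.11.15 and matplotlib 3.10.9 drew the figures.

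The series number pairs the arrays, since a series holds tissue of the same mice. Deviations from zone means of arrays in a series had r from -0.0286 to 0.123 (mean 0.0330, 9 pairs). A block for series, pseudocounts of 1 and 30.9, no filter or a 60th percentile filter, quantile normalization, median centring, averaged or separate probe sets, trend and robust options, fits of 6 arrays, and leaving out arrays or series were the alternatives. Counts of list genes without forestomach arrays 2 and 3 were added after the data were seen. They rest on forestomach array 1 alone for that zone. Members and lists were chosen with earlier results of these data known. Some genes of the lists were not tested and are not reported here, so counts are over the genes tested. All tested members of the ErbB family were named, and of each other list up to 4 genes per comparison, those called with the largest difference and no overlap. Dusp6 and Errfi1 were named after their values were seen. P-values measure the spread between pools.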

Additional observations from a re-analysis of the deposited data

How the results depend on the processing

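With the series as a replicate block the members called numbered 6 higher and 1 lower, 6 and 0, and 2 and 4 in the 3 comparisons, no member changed its call, and the genes above or below both neighbours fell from 29 to 12. That count was 13 with pseudocount 1, 75 with the larger one, 17 without a filter, 59 with the stricter filter, 46 with averaged probe sets, 52 over all probe sets, 64 with trend and robust options, 10 without forestomach arrays 2 and 3, and from 0 (limma, without series 2) to 24 when an array or series was left out. It could not be given for fits of 6 arrays. Members lower in the forestomach than in the corpus numbered 2 with pseudocount 1 and 0 without a filter, with median centring, over all probe sets and without forestomach arrays 2 and 3. Members higher in the junction than in the forestomach numbered 1 with the stricter filter, and members lower there 2 with averaged probe sets. Over all probe sets 15596, 5625 and 11027 were called, more being tested, and 3846 genes differed between junction and forestomach without forestomach arrays 2 and 3. Leaving out an array or series gave 6454 to 8132, 1349 to 3336 and 4015 to 6001 genes called in the 3 comparisons, 4 to 7, 2 to 7 and 1 to 3 members higher, and 0 to 2, 0 and 2 to 4 members lower. Median centring moved the median of all genes from -0.012 to 0.098 (forestomach against corpus) and from -0.050 to 0.054 (junction against corpus), and the share of higher calls in the latter from 52.9% to 70.6%. The log2 difference changed sign for Tgfa with averaged probe sets (0.11) and Hbegf without forestomach arrays 2 and 3 (-0.31), both junction against forestomach, and for Egfr in the 6-array fit of junction and corpus (-0.11), where another probe set was brightest. That of Epgn (junction against corpus) ran from -0.09 to 1.08 when an array or series was left out. That of Erbb2 (junction against forestomach) ran from -0.06 to 0.17, with 0.00 and -0.01 without junction or forestomach array 2, and was -0.09 without forestomach arrays 2 and 3. The other causes were not tested. Epgn and Nrg1 had arrays at or below the filter level, where signals are noisy, and 3 arrays a zone limit every comparison.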
